A study of Mus musculus with 24 samples.

Results

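The genes for the proteins of the cytosolic ribosome were examined in the extensor digitorum longus (EDL) and soleus (SOL) muscles of mice in which myofibers were induced to express Oct4, Sox2, Klf4 and c-Myc (OSKM). They were taken by symbol, as the protein-coding genes named Rpl or Rps with a number (a letter a, x or l and a further number allowed), together with Rplp0, Rplp1, Rplp2, Rpsa and Fau. This rule found 85 of the 24537 genes in the count table, 52 of the large and 33 of the small subunit. It leaves out Rpl36al, which is given beside the members below, and 1 further symbol that matched, Rps4l, is not protein-coding. All groups were mice aged 2 months that were given 1 mg/ml doxycycline (Dox) in the drinking water. Acta1-Cre+/4Fhet mice (Cre+) carry Cre under the Acta1 promoter, which is active in skeletal muscle fibers, and Acta1-Cre-/4Fhet mice (Cre-) lack Cre but received the same Dox. Both genotypes carry a Dox-dependent OSKM cassette at Col1a1 and an rtTA that Cre switches on at ROSA26, so the cassette is silent without Cre. EDL is a predominantly fast muscle and SOL a slow one, and each was sampled after 2.5, 5.5 and 8.5 days of Dox with 2 libraries for each muscle, genotype and day, 24 in all. Whole muscles were sequenced, so transcripts of resident cells that do not carry active Cre are included, and fewer cells of a type cannot be told apart from less RNA per cell.

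A ribosome joins a small subunit, which reads the mRNA, to a large subunit, which forms the peptide bond, and each protein of either subunit is needed in about equal number. The mRNAs of these proteins commonly begin with a terminal oligopyrimidine (TOP) tract, a C followed by a run of C and T at the start of transcription, through which mTOR signalling controls their translation. A few ribosomal proteins have paralogs of restricted expression. Striated muscle is known for RPL3L, a paralog that takes the place of RPL3 near the peptidyl transferase centre of the large subunit.

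To show what these starts look like in the genes the results turn on, 25 bases around the RefSeq start (5 before it and 20 from it on) are printed 5′ to 3′ on the strand of the gene, with a tract of a C and at least 4 further C or T that begins within 5 bases of the start in capitals. The sequences and coordinates are those of a table of RefSeq promoters on GRCm38.p6, in which 65 of the 85 genes were matched, Rpl3 not among them. Rpl12 (chr2:32961707-32961731, plus strand), Rpl22l1 (chr3:28805503-28805527, plus strand) and Rps10 (chr17:27635225-27635249, minus strand) had such a tract, while Rpl3l (chr17:24727821-24727845, plus strand), Rpl10 (chrX:74270811-74270835, plus strand) and Rpl10a (chr17:28328466-28328490, plus strand) did not.
Rpl12: gatccgtCTTTTCggctttcggctc
Rpl22l1: agcccgttCTCTTCCCacggctgca
Rps10: cgCCCCTTCCTTTCCagcctccgcc
Rpl3l: gctctgtcatttgacctctggtgcc
Rpl10: tggaagataggccgcctatataagg
Rpl10a: cccagcggccgcaaactgcagcgcc
Of the 65 genes, 30 (46.2%, Wilson 95% interval 34.6 to 58.2%) had a tract, against 18.8% of the 15915 protein-coding genes with a promoter in the table. Both shares moved with the definition. They were 33.9 and 8.88% for a tract that begins within 2 bases of the start, 58.5 and 31.4% within 10 bases, and 36.9 and 6.52% with at least 6 C or T after the C. The E-box CACGTG, a palindrome to which c-Myc can bind, was in 7.69% of the members' windows of 300 bases and in 8.18% of all. These are matches of letters, and a window without a match says nothing of the factor. Starts were taken as annotated and not measured, so a gene listed without a tract may have one at its true start. Of the genes with a tract, 29 were tested, and their median log2 fold change in EDL was 0.26 after 2.5 days and 0.27 after 8.5 days. For the 34 tested genes without one it was 0.36 and 0.30.

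Total counts per library lay between 36088781 and 54679082, so a count of 0 allows at most 0.0831 CPM (3 counts, counting error only). Levels are given as FPKM, in which a gene's counts are divided by the length of its exons and by the library's total. Of the OSKM genes, Pou5f1 (Oct4, cassette and endogenous gene together) was at 17.5 and 70.5 FPKM in the Cre+ EDL libraries of 2.5 days and at 76.2 and 57.7 FPKM at 8.5 days. In Cre+ SOL libraries it lay between 5.02 and 12.2 FPKM on these days, and in Cre- libraries at no more than 0.0896 FPKM. At 5.5 days, the Cre+ libraries had 1.02 and 27.7 FPKM in EDL and 0.0785 and 0.387 FPKM in SOL, so that 3 of these 4 libraries carried little Pou5f1. The study left out samples that lacked OSKM overexpression as outliers and does not name them in the sources used here, and the 5.5 day libraries are described apart from the others. The same-numbered EDL and SOL libraries of a group deviated together, and the text calls them libraries of the same number.

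In Cre- muscles, the ribosomal protein genes were abundant and unequal in FPKM. Their mean level over the 8 Cre- libraries of 2.5 and 8.5 days had a median of 219 FPKM and an interquartile range from 121 to 343 FPKM. Of the 85 genes, 67 were above 100 FPKM, 15 between 10 and 100 FPKM, and 3 below 1 FPKM. The lengths in the table for Rps15a (5127 bases) and Rps20 (3440 bases) are the longest of the members, and those for Rpl22 and Rps27 are of non-coding transcripts, so the FPKM of these genes may not be comparable with those of others. The 5 highest over the 16 libraries of 2.5 and 8.5 days were Rplp1, Rpl4, Rps15, Rps14 and Rps29. Rplp1, an acidic stalk protein, ranged from 862 to 1396 FPKM with a median of 1015 FPKM, and Rpl4 from 430.1 to 957 FPKM with a median of 598 FPKM. Rps15, Rps14 and Rps29, all of the small subunit, had medians of 665, 649.8 and 532 FPKM. The 3 genes below 1 FPKM were Rpl10l, Rpl32l and Rpl39l, each named as a paralog of a gene expressed here. Rpl10l had at most 1 count and Rpl32l at most 4 counts in any library, and both were removed by the filter on low counts, which left 83 genes for the tests. Rpl39l passed the filter with 0 to 17 counts and is too low to be read. The loci of 23 members overlap 32 small nucleolar RNA genes, and 9 members overlap another protein-coding gene, among them Rpl5, Rpl32 and Rps27a on the opposite strand and Rps27 on the same strand, and whether counting used the strand is not given in the sources used here. Only reads that aligned to one place were counted, so genes with processed pseudogenes close to their own sequence may be counted too low, and levels between genes should be read with that in mind.

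Ribosomal protein genes took a larger share of all counts in every Cre+ EDL library than in any Cre- EDL library of the same day at 2.5 and 8.5 days. After 2.5 days the share was 1.44 and 1.27% in Cre- EDL and 1.90 and 2.21% in Cre+ EDL muscles. After 8.5 days it was 1.74 and 1.49% in Cre- and 2.22 and 2.20% in Cre+. Both subunits took part, with means at 2.5 days of 0.808% (Cre-) and 1.22% (Cre+) for the large subunit and 0.548% and 0.829% for the small (n = 2 each). In SOL the groups overlapped at 2.5 days, with 1.55 and 1.76% in Cre- and 1.76 and 1.64% in Cre+ libraries. At 8.5 days SOL had 1.66 and 1.69% in Cre- and 1.94 and 1.68% in Cre+ libraries, which overlap too. The Wilson 95% interval of a single share is at most 0.00435 percentage points to either side, far less than the distance between libraries of one group. A share depends on what else is in the library. The 10 most abundant genes, all of muscle contraction and energy supply such as Acta1, Myh4 and Ckm, took 19.5 and 21.0% of counts in Cre- EDL and 17.0 and 12.8% in Cre+ EDL at 2.5 days. With these 10 genes out of the denominator the mean share at 2.5 days was 1.70% in Cre- and 2.41% in Cre+ EDL muscles.

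**Figure D1:**
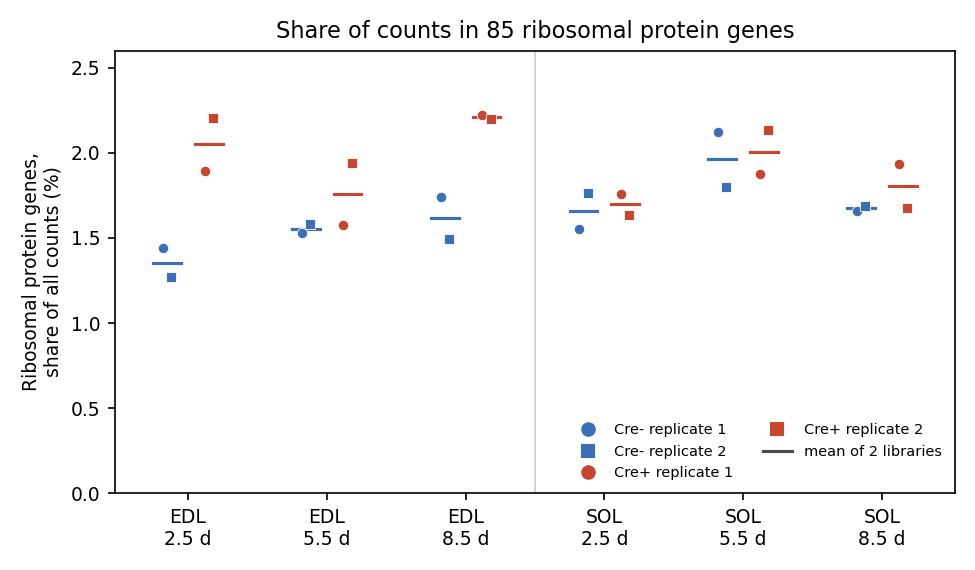
Share of all counts (%, linear axis from 0) that fell on the 85 ribosomal protein genes in each of the 24 libraries, by muscle and days of Dox, with Cre- in blue and Cre+ in red. Circles are replicate 1, squares replicate 2 and bars the mean of the 2 libraries. In EDL at 2.5 and 8.5 days, the Cre+ libraries lie between 1.90 and 2.22% and the Cre- libraries between 1.27 and 1.74%, while in SOL the genotypes overlap on every day.

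To ask which genes changed, Cre+ was compared with Cre- in each muscle on each day with edgeR's quasi-likelihood test, with p-values adjusted by Benjamini-Hochberg over all genes tested. In EDL after 2.5 days, most ribosomal protein genes had a small positive change, and 54 of 83 did not pass even by adjusted p alone. Of the 83 tested, 75 had a positive log2 fold change, and the median was 0.29, against -0.05 over all 15372 genes tested. These changes are on TMM-scaled counts, whereas FPKM are divided by the library total. The TMM factors were 0.910 and 0.880 in Cre- and 1.09 and 1.16 in Cre+ EDL libraries of 2.5 days, so a change can be below that of the FPKM, or of the other sign. A gene was called where its adjusted p was below 0.05 and its log2 fold change beyond 0.5 in either direction. In this way 13 members rose and 1 fell. That is 15.7% of them rising, close to the background of 13.8% of all genes, and 1.2% falling, against 10.2%. DESeq2 on the same libraries gave 17 rising (20.5%, against 14.3% of all genes with an adjusted p), and on the 4 libraries of the comparison 19 (23.2%, against 13.5%). With edgeR on those 4 libraries there were 7 (8.54%, below the 10.5% of all genes), so the side of the background depends on the fit. By the adjusted p alone, 28 rose (33.7%, against 15.5% of all genes) and 1 fell (1.2%, against 12.1%). The large subunit gave 19 of the 28 and the small subunit 9, from 50 and 33 tested genes.

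After 8.5 days the median change in EDL was again 0.29, against -0.02 over all genes, with 77 of the 83 positive. By adjusted p and fold, 5 rose (6.02%, below the background of 7.63%) and 1 fell (1.2%, against 6.5%). DESeq2 gave 6 rising on the same libraries (7.23%, against 8.63%) and 4 on the 4 libraries of the comparison (4.88%, against 7.2%). With edgeR on those 4 libraries there was 1 (1.22%, against 4.71%). By adjusted p alone, 14 rose (16.9%, against 8.47%) and 1 fell (against 7.24%). By adjusted p alone, 9 members rose on both days (10.8%, against 6.92% of all genes), 19 only at 2.5 days (22.9%, against 8.56%) and 5 only at 8.5 days (6.02%, against 1.55%). A positive change on both days was found for 71 of 83 (85.5%, against 34.6% of all genes). No gene passed the test of the difference between the days in edgeR (2 of 83 members at an unadjusted p under 0.05, with no share of all genes given). In DESeq2 1 of 82 members passed, near the background of 1.02% of all genes. Every Cre+ EDL library was above every Cre- EDL library of its day, on both days, for 51 of the 83 genes on TMM-scaled values, against 18.8% of all genes. The median standard error of a member was 0.14 on the log2 scale. The counts of calls by adjusted p and fold rest on single libraries. At 2.5 days the 14 calls (24% of all genes called) became 4 without Cre+ replicate 2 (12.7% of all genes), 5 without Cre- replicate 2 (16%) and 23 without Cre+ replicate 1 (27.1%). At 8.5 days the 6 calls (14.1% of all genes) became 1 without Cre+ replicate 1 (4.67%) or Cre- replicate 2 (16.9%), 2 without Cre+ replicate 2 (10.7%) and 13 without Cre- replicate 1 (7.9%). The median stayed between 0.22 and 0.37 at 2.5 days and between 0.19 and 0.41 at 8.5 days in these fits. Scaling by library size alone moves the median of all genes to 0.28 and 0.16 and that of the members to 0.61 and 0.47, so that the members lie above it by 0.33 and 0.31, as they do with TMM.

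**Figure D2:**
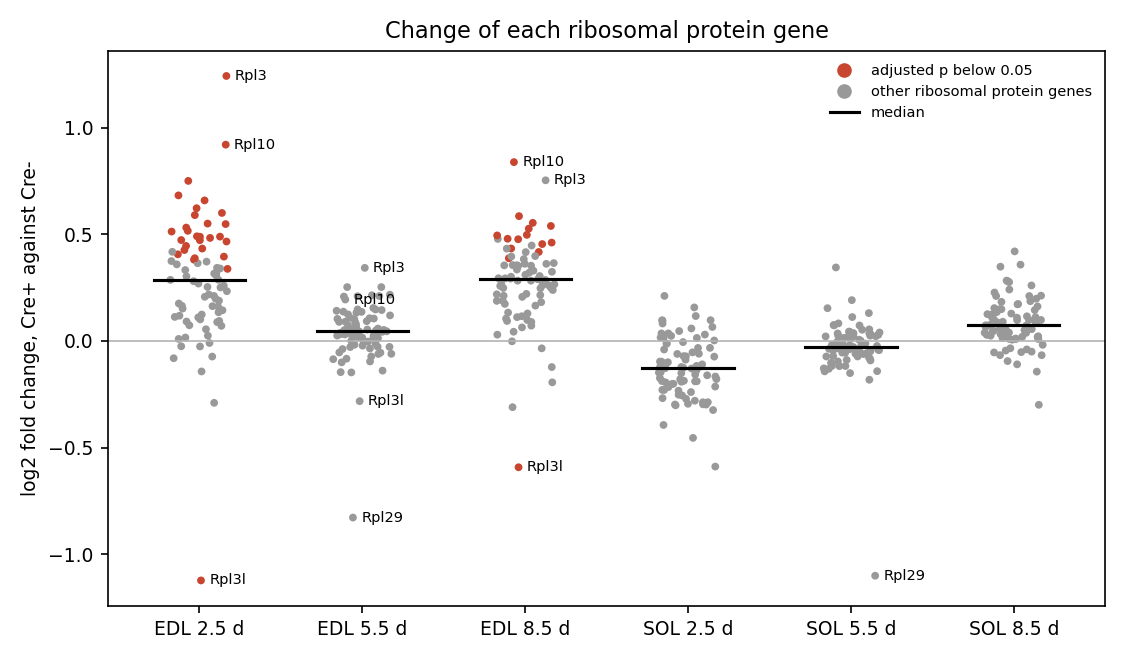
Log2 fold change of Cre+ against Cre- (edgeR, TMM) for each ribosomal protein gene, 1 point a gene, in EDL and SOL after 2.5, 5.5 and 8.5 days. Red points passed an adjusted p of 0.05 and black bars are medians over the 83 tested genes. Rpl39l, at most 17 counts in a library, is not drawn, which leaves 82 points in each column. Medians are 0.29 in EDL at 2.5 and 8.5 days and between -0.13 and 0.07 elsewhere.

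The paralogs Rpl3 and Rpl3l moved in opposite directions in EDL. Rpl3 (chr15:80077781-80083406 on mm10, minus strand) encodes the core large-subunit protein beside the peptidyl transferase centre. After 2.5 days its level in EDL was 48.9 and 50.2 FPKM without Cre and 100.3 and 198 FPKM with it. After 8.5 days it was at 61.2 and 50.8 FPKM in Cre- and at 132 and 83.5 FPKM in Cre+ EDL muscles. The genotypes did not overlap on either day, and the Cre+ libraries differed widely from each other. Rpl3 rose at 2.5 days by a log2 fold change of 1.24 ± 0.28 (SE; edgeR, Benjamini-Hochberg adjusted p = 0.00568). At 8.5 days the change was 0.75 ± 0.28 with an adjusted p of 0.0862 (edgeR), which did not pass, although DESeq2 on the same libraries gave 0.0399. Without Cre+ EDL replicate 2, the 2.5 day change was 0.73 with an adjusted p of 0.0944 (edgeR).

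Rpl3l (chr17:24727829-24736149 on mm10, plus strand) was at 399 FPKM in both Cre- EDL libraries of 2.5 days and at 257 and 201 FPKM in the Cre+ libraries. At 8.5 days it was at 392 and 403 FPKM in Cre- and at 256 and 338 FPKM in Cre+ EDL muscles. Each Cre+ library was lower than each Cre- library of its day. Rpl3l fell by 1.12 on the log2 scale at 2.5 days (SE 0.19; edgeR, adjusted p = 0.000958), a call it kept in every alternative fit and with a log2 limit of 1, and by 0.59 at 8.5 days (SE 0.19). The 8.5 day call is at the threshold (edgeR, adjusted p = 0.04999). It was lost in 8 alternative fits and with a log2 limit of 1, with an adjusted p of 0.374 without Cre+ EDL replicate 1 as the highest.

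Per unit length there were 8.15 and 7.95 Rpl3l transcripts for each Rpl3 transcript in Cre- EDL muscles at 2.5 days, and 2.57 and 1.02 in Cre+ EDL muscles. At 8.5 days the ratio was 6.41 and 7.94 in Cre- and 1.94 and 4.05 in Cre+ EDL muscles. It moved the same way at 5.5 days, from 10.1 and 9.77 in Cre- to 6.79 and 6.05 in Cre+ EDL muscles. On that day Rpl3l itself overlapped between the genotypes in EDL, at 384 and 416 FPKM in Cre- and 396 and 330 FPKM in Cre+. The ratio is a description and was not tested. Since only uniquely aligned reads were counted, it is to be compared between libraries and not read as absolute. In SOL it was 5.79 and 5.44 in Cre- and 4.79 and 4.50 in Cre+ libraries at 2.5 days, lower without overlap. The same held at 5.5 days, with 5.29 and 5.39 in Cre- and 4.86 and 4.53 in Cre+ SOL muscles. At 8.5 days the SOL groups overlapped, with 3.90 and 3.74 in Cre- and 2.90 and 5.21 in Cre+. At 2.5 and at 8.5 days in EDL, the Cre+ library with the higher Pou5f1 level also had the higher Rpl3 and lower Rpl3l level. This order did not hold throughout, since the Cre+ library with more Pou5f1 had the lower Rpl3 level in EDL at 5.5 days (54.6 against 58.4 FPKM) and in SOL at 2.5 days (68.9 against 75.8 FPKM). Whether the Pou5f1 level plays a part was not tested.

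**Figure D3:**
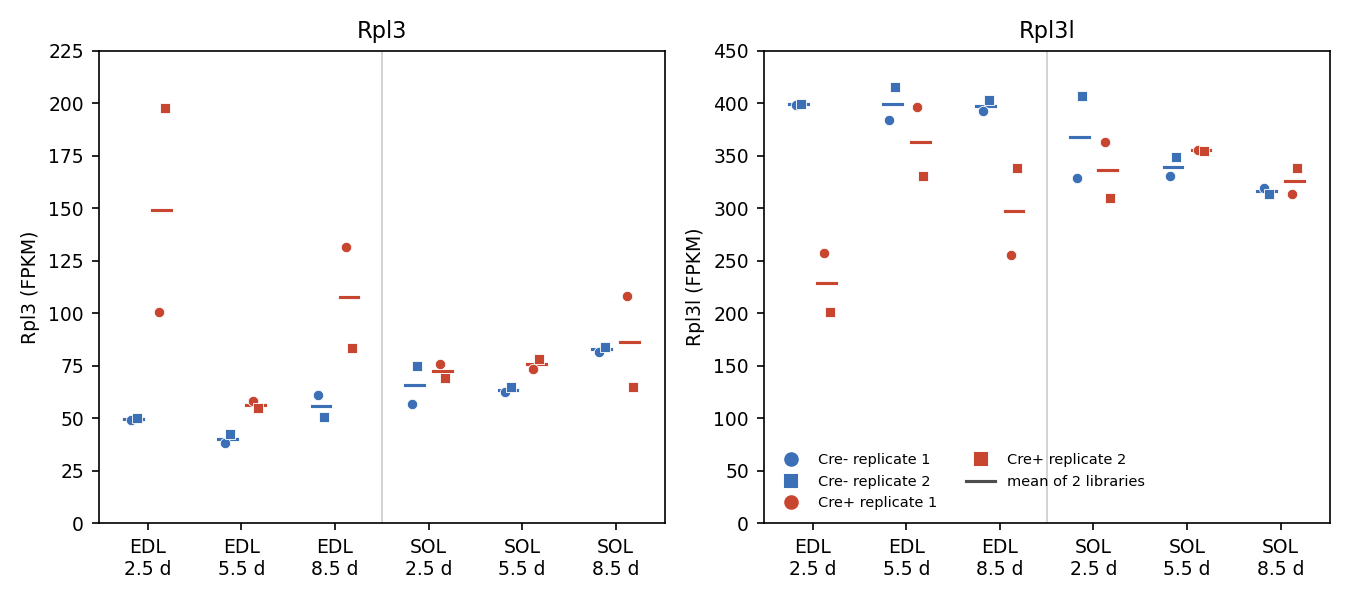
FPKM of Rpl3 (left) and Rpl3l (right), on linear axes of different range from 0, in each library, by muscle and days of Dox, with Cre- in blue and Cre+ in red, circles for replicate 1, squares for replicate 2 and bars for means of 2 libraries. In EDL at 2.5 days Rpl3 goes from 48.9 and 50.2 in Cre- to 100.3 and 198 in Cre+ muscles while Rpl3l goes from 399 to 257 and 201. In SOL the genotypes overlap for both genes at 2.5 and 8.5 days.

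Rpl10 had the smallest adjusted p of all members in EDL on both days. Its protein is among the last to join the large subunit. It was at 283 and 234 FPKM in Cre- and at 587 and 644 FPKM in Cre+ EDL muscles at 2.5 days. At 8.5 days it was at 329.6 and 282 FPKM in Cre- and at 643 and 597 FPKM in Cre+ EDL muscles. The groups lay far apart and the libraries of a group close together. It rose by a log2 fold change of 0.92 ± 0.12 (edgeR, adjusted p = 0.000241) and of 0.84 ± 0.12 (adjusted p = 0.000893), and it kept its call in EDL under every alternative fit and without any single library, but not with a log2 limit of 1. Its neighbours in size at 2.5 days were Rpl12 and Rpl10a. Rpl12, which holds the base of the stalk, was at 349 and 288 FPKM in Cre- and at 579 and 771 FPKM in Cre+ EDL muscles, a rise of 0.75 ± 0.15 (edgeR, adjusted p = 0.00283). Rpl10a, which forms the L1 stalk by which the tRNA leaves, was at 83.4 and 69.3 FPKM in Cre- and at 144 and 164 FPKM in Cre+ EDL muscles, a rise of 0.68 ± 0.16 (edgeR, adjusted p = 0.00743). At 8.5 days Rpl12 rose by 0.48 ± 0.15 and Rpl10a by 0.59 ± 0.16 (edgeR, adjusted p = 0.0476 and 0.0269). The Rpl10a call at 2.5 days was lost without Cre+ replicate 2 or Cre- replicate 2 (edgeR, adjusted p = 0.0528 and 0.0749). At 8.5 days Rpl12 was past the adjusted p only, and without any 1 of the 4 EDL libraries neither gene had an adjusted p below 0.05 (edgeR, between 0.0531 and 0.218).

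The other large-subunit genes that rose by over 0.5 at 2.5 days were Rpl22l1, Rpl13, Rpl5, Rpl11, Rpl32, Rpl22 and Rpl17, with changes between 0.51 and 0.62. Each of these 7 lost the call without Cre+ replicate 2 and without Cre- replicate 2 (edgeR, adjusted p between 0.0647 and 0.165), with changes between 0.34 and 0.52. In edgeR on the 4 libraries of the comparison alone, all of them but Rpl13 lost it too, with an adjusted p of 0.0984 for Rpl22 as the highest. RPL5 and RPL11 bind the 5S rRNA and, when not built into ribosomes, can bind MDM2, the regulator of p53. They rose by 0.55 each at 2.5 days (edgeR, adjusted p = 0.0154 and 0.0058) and had changes of 0.36 and 0.25 at 8.5 days, which did not pass. Rpl32 rose on both days, by 0.53 and 0.55. Rpl39, a small protein at the exit tunnel of the nascent chain, passed at 8.5 days only, at 142 and 104 FPKM in Cre- and 191 and 209 FPKM in Cre+ EDL muscles, with a change of 0.53 ± 0.16 (edgeR, adjusted p = 0.0432). Of the small subunit, 2 genes were called higher at 2.5 days, of which only Rps3a1, near the site where mRNA leaves, is described here. Rps3a1 went from 202 and 166 FPKM in Cre- to 331 and 399 FPKM in Cre+ EDL muscles at 2.5 days. It rose by 0.66 ± 0.13 at 2.5 and 0.54 ± 0.13 at 8.5 days (edgeR, adjusted p = 0.00243 and 0.0139). The 8.5 day calls of Rpl32, Rpl39 and Rps3a1 were each lost without Cre+ replicate 1, Cre+ replicate 2 or Cre- replicate 2 (edgeR, adjusted p between 0.0549 and 0.226, changes between 0.34 and 0.64), and that of Rpl39 also with the replicate number as a block (edgeR, adjusted p = 0.0543). Rps6, whose protein is the known substrate of S6 kinase, rose by 0.40 at 2.5 days (edgeR, adjusted p = 0.0323) and had a change of 0.36 at 8.5 days. Genes just inside the fold threshold at 2.5 days were Rpl17 (0.51) and Rpl22 (0.52), and just outside it Rpl4, Rpl6 and Rpl9 (0.49 each).

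**Figure D4:**
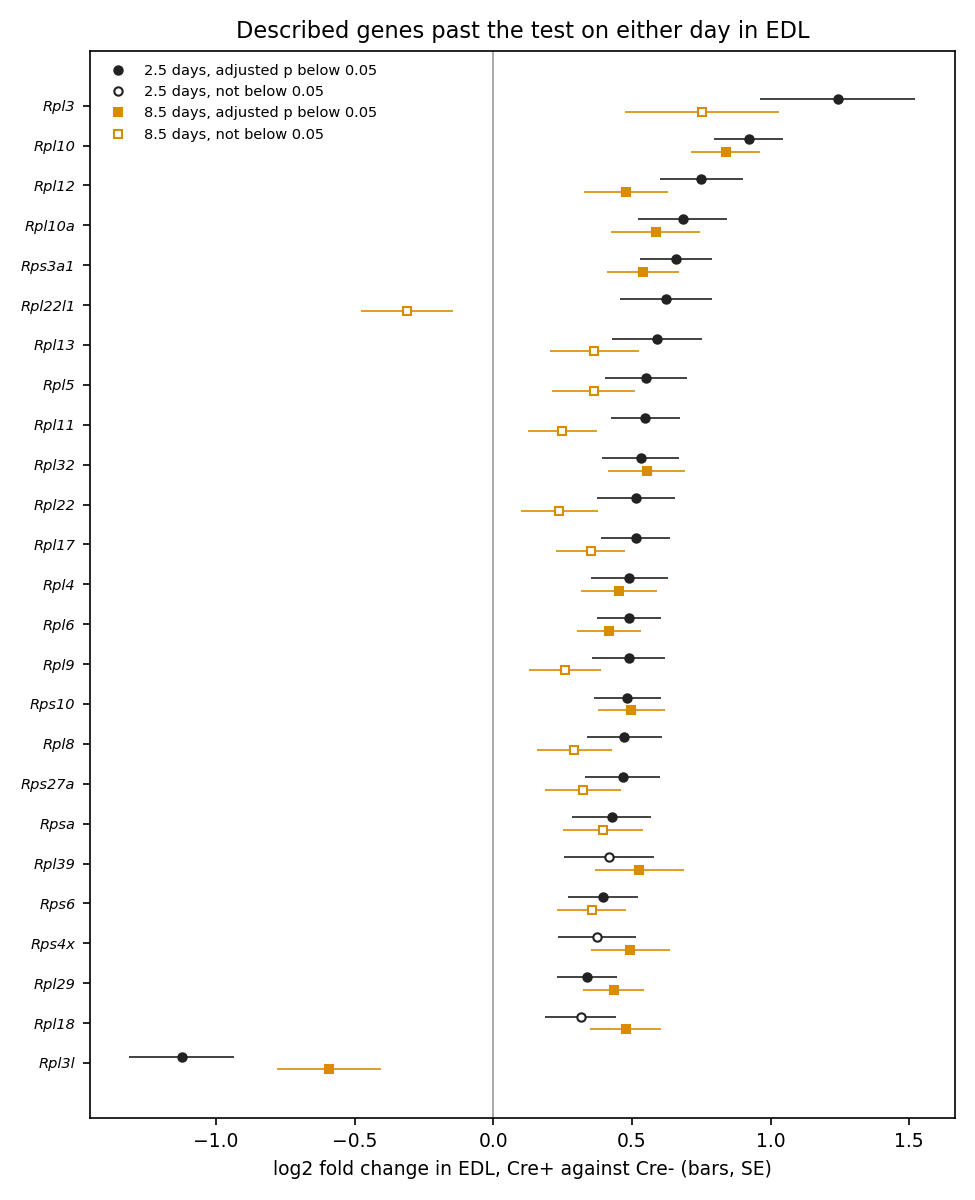
Log2 fold change of Cre+ against Cre- in EDL (edgeR, bars are SE) for 25 of the 34 ribosomal protein genes that passed an adjusted p of 0.05 after 2.5 or 8.5 days, those described in the text, ordered by the change at 2.5 days. Black circles are 2.5 days and orange squares 8.5 days, filled where the gene passed on that day. Rpl3l lies at -1.12 and -0.59, all other filled symbols are above 0, and Rpl22l1 lies at 0.62 and -0.31.

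Of the other paralogs, Rpl22l1, a paralog of Rpl22, was at 85.6 and 60.5 FPKM in Cre- and at 126 and 157 FPKM in Cre+ EDL muscles at 2.5 days, and Rpl22 at 59.0 and 44.1 FPKM and at 80.6 and 105 FPKM. Both rose at 2.5 days, by 0.62 ± 0.17 and 0.52 ± 0.14 (edgeR, adjusted p = 0.0141 and 0.016). At 8.5 days Rpl22l1 was at 89.8 and 91.0 FPKM in Cre- and at 73.9 and 90.7 FPKM in Cre+ EDL muscles, a change of -0.31 ± 0.17, and the change of Rpl22 was 0.24 ± 0.14, neither of which passed. The difference of its change between the days was -0.93 ± 0.23 (edgeR, adjusted p = 0.241 over all genes). It was the 1 member of 82 that DESeq2 called for this difference (-0.96, adjusted p = 0.0352), where 1.02% of all genes passed. None of the other alternative fits, all of edgeR, called it. There were 1.45 and 1.37 Rpl22l1 transcripts for each of Rpl22 in Cre- and 1.56 and 1.497 in Cre+ EDL muscles at 2.5 days, and 1.35 and 1.58 in Cre- and 0.879 and 1.10 in Cre+ EDL muscles at 8.5 days. Given the length used for Rpl22, these ratios are to be compared between libraries and not read as absolute. Rps27l, a paralog of Rps27 known as a p53 target, had changes of 0.18 and -0.12 in EDL, and Rps27 of 0.09 and 0.21. Rpl7 and Rpl7l1, an assembly-associated relative, had changes between -0.03 and 0.35. None of these 4 genes passed in either EDL comparison. Rps4x, the X-linked gene whose Rps4l partner is not protein-coding, passed at 8.5 days (0.49, edgeR, adjusted p = 0.0324).

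The stalk that calls elongation factors to the ribosome is built of RPLP0 with dimers of RPLP1 and RPLP2, and its genes did not pass in any comparison of Cre+ with Cre-. Rplp1 had changes of 0.01 and 0.13 and Rplp2 of 0.16 and 0.18 in EDL. Rplp0 had changes of -0.29 ± 0.44 and -0.19 ± 0.44 (SE), where the median standard error of a member was 0.14. At 2.5 days the sign in EDL depends on the scaling, with a change of 0.06 by library size alone. On that day its levels differed between libraries of 1 group more than between genotypes. Replicate 1 had 190.3 (Cre-) and 214 FPKM (Cre+) in EDL and 202 (Cre-) and 197 FPKM (Cre+) in SOL, and replicate 2 had 393, 394, 542 and 348 FPKM in the same order. At 8.5 days the 8 libraries lay between 418 and 652 FPKM. The low value thus went with the replicate number in both muscles and both genotypes. Rpl29 did the same at 5.5 days. In EDL its replicates 1 and 2 had 50.2 and 6.36 FPKM (Cre-) and 27.1 and 8.13 FPKM (Cre+), and in SOL 76.0 and 7.46 FPKM (Cre-) and 32.8 and 7.60 FPKM (Cre+), while all 16 libraries of the other days lay between 39.1 and 75.1 FPKM. Over the 82 members of at least 1 FPKM and the 6 pairs of groups, 6 of 492 cases had replicates that differed by over 0.5 on the log2 scale in the same direction in both muscles. They were Rplp0 in both genotypes at 2.5 days, Rpl29 in both at 5.5 days, Rps2 in Cre- at 2.5 days and Rpl3 in Cre+ at 8.5 days. The share of all genes with such a difference is not given here, so this count has no background.

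**Figure D5:**
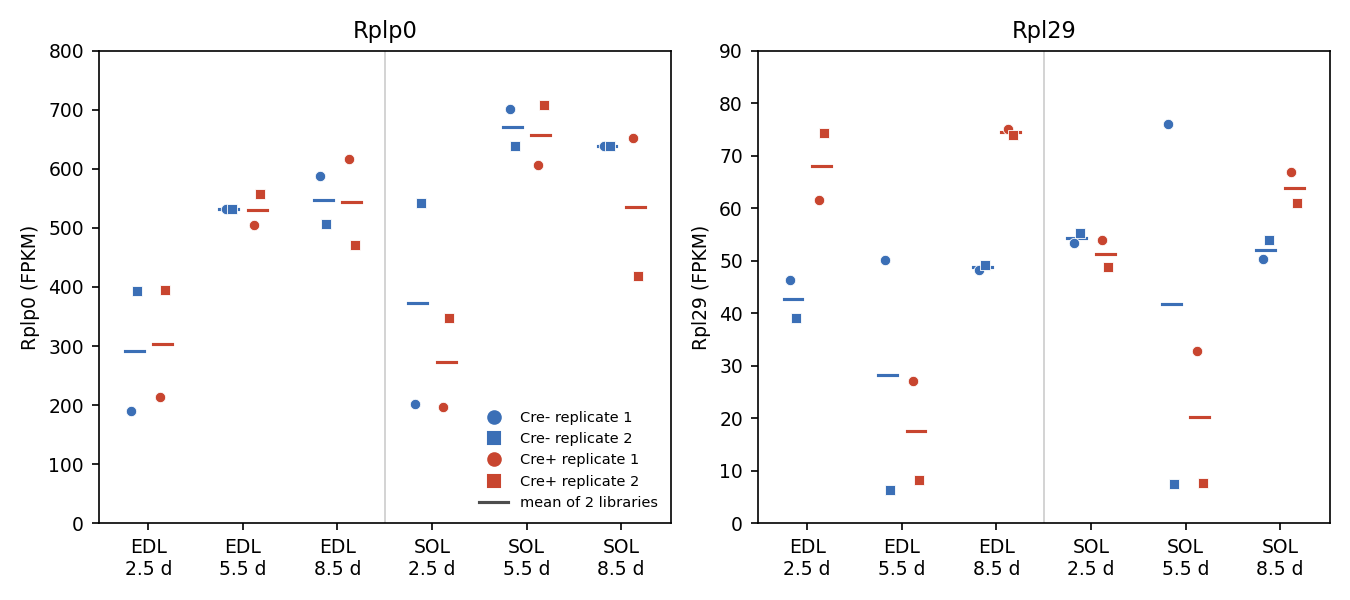
FPKM of Rplp0 (left) and Rpl29 (right) in each library, by muscle and days of Dox, on linear axes from 0, with Cre- in blue, Cre+ in red, circles for replicate 1, squares for replicate 2 and bars for means. Replicate 1 of 2.5 days is low for Rplp0 (190.3 to 214 FPKM) and replicate 2 of 5.5 days for Rpl29 (6.36 to 8.13 FPKM) in both muscles and genotypes.

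Rps27a, Fau and Rpsa have a further function in their protein or its precursor. Rps27a, made as a fusion with ubiquitin, rose by 0.47 ± 0.14 in EDL at 2.5 days (edgeR, adjusted p = 0.0229) and had a change of 0.32 at 8.5 days. Fau, made as a fusion with a ubiquitin-like protein, had changes of -0.03 and 0.22. Rpsa, also described as a laminin receptor precursor, rose by 0.43 at 2.5 days (edgeR, adjusted p = 0.0421) and had a change of 0.40 at 8.5 days. Rpl36al passed at 8.5 days (0.49, edgeR, adjusted p = 0.0333).

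In SOL no ribosomal protein gene passed on either day in edgeR, against 0.384% of all genes at 2.5 days (0.345% higher, 0.039% lower) and 0.631% at 8.5 days (0.332% higher, 0.299% lower). DESeq2 called 0 as well, against 2.72% of all genes at 2.5 days and 1.02% at 8.5 days. In edgeR 7 members (all lower) and 3 members (all higher) had an unadjusted p under 0.05. The share of all genes at that limit is not given here, so these counts have no background. The median change was -0.13 at 2.5 days, against 0.02 over all genes, and 0.07 at 8.5 days, against -0.01. At 2.5 days 64 of 83 genes had a negative and at 8.5 days 69 a positive change. On TMM-scaled values, 39 of 83 were lower without overlap at 2.5 days (against 21.6% of all genes) and 4 higher (26.9%). At 8.5 days 34 were higher (20.5%) and 2 lower (18.5%). On both days 2 were higher (10%) and 1 lower (7.77%). By library size alone, 5 were lower and 23 higher at 2.5 days (10.5 and 43.8%). Scaled by library size alone, the 2.5 day median is 0.02 with 36 genes negative, and the median of all genes is then 0.18, so the sign depends on the scaling while the members stay 0.15 below all genes. Among the members with the largest changes were Rplp0 (-0.59) and Rps28 (-0.45) at 2.5 days and Rpl22l1 (0.42), Rpl10a (0.36) and Rps2 (0.35) at 8.5 days. Rpl3 had changes of -0.01 and 0.02 and Rpl3l of -0.28 and 0.01. Rpl10 was at 257 and 286 FPKM in Cre- and at 359 and 339 FPKM in Cre+ SOL muscles at 2.5 days, and at 293 and 299.9 FPKM against 390.5 and 323 FPKM at 8.5 days. Its Cre+ libraries were the higher ones on both days, with changes of 0.21 and 0.23 ± 0.12 that did not pass (edgeR, adjusted p = 0.495 and 0.852).

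The difference between muscles was tested directly, as the change in EDL minus the change in SOL, averaged over 2.5 and 8.5 days. It was positive for 81 of 83 members, with a median of 0.30, against -0.05 over all genes. By adjusted p and fold, Rpl3 and Rpl10 were higher (2.41%, against 5.91% of all genes) and Rpl3l lower (against 3.04%), where 8.96% of all genes passed in either direction. By adjusted p alone 9 were higher (10.8%, against 6.56%) and Rpl3l lower (against 3.48%). These tests did not pair libraries of the same number. A fit that paired them called 2 members higher and 1 lower by adjusted p and fold (7.14 and 4.4% of all genes). The difference was 0.99 ± 0.28 for Rpl3, 0.66 ± 0.12 for Rpl10 and -0.72 ± 0.19 for Rpl3l (edgeR, adjusted p = 0.0397, 0.00731 and 0.0303). The 3 calls became 1 without any 1 of 5 libraries (Cre- SOL replicate 1 of either day, Cre+ and Cre- EDL replicate 2 of 2.5 days, Cre+ SOL replicate 2 of 8.5 days), where between 4.98 and 6.5% of all genes were called, and up to 8 without Cre+ EDL replicate 1 of 2.5 days (12.7% of all genes). Rpl10 kept this call in every alternative fit, though with a log2 limit of 1 no member was called. Rpl3 lost it without any 1 of 13 libraries and Rpl3l without any 1 of 9, with the size of the difference between 0.74 and 1.07 for Rpl3 and between 0.61 and 0.76 lower for Rpl3l in those fits. EDL also carried more Pou5f1 than SOL, so muscle and OSKM level cannot be told apart here.

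Without an active OSKM cassette, few of these genes differed between the muscles. Of 83 members, 1 was higher and 1 lower in EDL than in SOL of Cre- mice by adjusted p and fold, against 10.8 and 11.1% of all genes. By adjusted p alone 2 were higher and 4 lower, against 16.4 and 15.6%. The median was -0.10, against 0.01 over all genes. A fit that paired libraries of the same number called 1 member higher and 1 lower by adjusted p and fold (11.2 and 11.9% of all genes). Rpl22l1 was higher in EDL by 0.93 ± 0.12 (edgeR, adjusted p = 7.17e-05), at 85.6, 60.5, 89.8 and 91.0 FPKM in EDL and 51.1, 54.8, 35.9 and 42.4 FPKM in SOL, without overlap. Rps13, a small-subunit core protein, was lower in EDL by 0.61 (SE 0.11; edgeR, adjusted p = 0.000952), at 155, 117, 169.9 and 134 FPKM in EDL and 249.9, 224, 224 and 235 FPKM in SOL, again without overlap. Rps27l was higher by 0.38 ± 0.10 (adjusted p = 0.00975) and Rps10, Rpl28 and Rps9 lower by between 0.26 and 0.35 (edgeR). Rpl3 and Rpl3l had differences of -0.39 ± 0.20 and 0.32 ± 0.13 (edgeR, adjusted p = 0.15 and 0.0871), which did not pass.

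At 5.5 days, no member passed in EDL or SOL in edgeR, against 0.304% of all genes in EDL (0.258% higher, 0.0452% lower) and 0% in SOL. DESeq2 called 0 too, against 1.13% of all genes in EDL and 0% in SOL. In edgeR 1 member in EDL (Rpl39l) and 0 in SOL had an unadjusted p under 0.05, again with no share of all genes given. The median change was 0.05 in EDL and -0.03 in SOL. In EDL, the Cre+ library with 27.7 FPKM of Pou5f1 had 1.94% of its counts in ribosomal protein genes and the one with 1.02 FPKM had 1.57%, beside 1.53 and 1.58% in Cre- libraries. Without the latter Cre+ library (replicate 1) the median change in EDL was 0.20, and without the former it was -0.12. Rpl3 was at 38.1 and 42.5 FPKM in Cre- and at 58.4 and 54.6 FPKM in Cre+ EDL muscles, without overlap (change 0.34 ± 0.24, edgeR, adjusted p = 0.788). Rpl39l had 0 counts in both Cre+ EDL libraries and 2 and 3 counts in the Cre- ones, which is within the 3 counts that a count of 0 allows.

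Other genes of translation were described by the same call of adjusted p and fold. Of 18 other mRNAs known for a TOP tract, 7 rose (38.9%, against 13.8% of all genes) and 0 fell at 2.5 days, with a median change of 0.36, and 2 rose at 8.5 days (11.1%, against 7.63%), again with a median of 0.36. Eef1a1, which brings tRNA to the ribosome, rose by 1.87 ± 0.27 and 1.55 ± 0.27 (edgeR, adjusted p = 0.00035 and 0.00221), and Nap1l1, a histone chaperone, by 1.57 at 2.5 days. Eef1a1 was at 309.5 and 240 FPKM in Cre- and at 1087 and 1438 FPKM in Cre+ EDL muscles at 2.5 days. Its paralog Eef1a2, the form of adult muscle fibers, was at 571 and 651 FPKM in Cre- and at 730 and 703 FPKM in Cre+ EDL muscles and had TMM-scaled changes of -0.10 at 2.5 and 0.19 at 8.5 days that did not pass, the first of the other sign than its FPKM. Eef1a2 transcripts per Eef1a1 transcript thus went from 1.84 and 2.72 in Cre- to 0.672 and 0.489 in Cre+ EDL muscles at 2.5 days. This ratio too is to be compared between libraries and not read as absolute. Of 24 ribosome assembly genes, 6 rose (25%, against 13.8% of all genes) and 0 fell (against 10.2%) at 2.5 days (median 0.48), among them Npm1 (1.09) and Ncl (1.07), which act in the nucleolus, and 1, Nob1, rose at 8.5 days (0.76), which is 4.17% of the list and below the background of 7.63%. Of 78 mitochondrial ribosomal protein genes, 2 rose and 8 fell at 2.5 days (10.3% falling, the same as the background of 10.2%; median -0.18), and 0 rose and 11 fell at 8.5 days (14.1%, against 6.5%; median -0.24). Mrps36 and Mrpl41 had the largest changes at 2.5 days, -0.83 and -0.81 (edgeR, adjusted p = 0.00779 and 0.000593). In SOL no gene of these lists passed on either day in edgeR, against 0.384% of all genes at 2.5 and 0.631% at 8.5 days. At an unadjusted p under 0.05 there were 33 mitochondrial genes (all lower) and 1 TOP gene at 2.5 days and 4 and 1 at 8.5 days. The share of all genes at that limit is not given here, so these counts have no background. DESeq2 was not run for these lists. The median of the mitochondrial list in SOL was -0.26 and -0.12. These lists were drawn up with earlier results of these data known.

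Markers of cell types moved with the genotype as well. The summed FPKM of 8 myofiber genes was between 37939 and 45883 in Cre+ and between 63182 and 70056 in Cre- EDL muscles at 2.5 days. At 8.5 days it was between 38215 and 44510 against 58333 and 68328. Of the 8 genes, 4 and 3 were lower without overlap on these days and 0 higher. By library size alone, 15.4 and 15.5% of all genes tested were lower without overlap. The sum of 7 fibroblast genes overlapped at 2.5 days (1287 to 2389 in Cre+, 1574 to 1783 in Cre-) and was higher in Cre+ EDL muscles at 8.5 days (2021 to 2852 against 1538 to 1749). That of 6 satellite cell genes overlapped at 2.5 days and was higher at 8.5 days (20.2 to 21.9 against 13.8 to 16.7). That of 7 endothelial genes was lower at 2.5 days (109 to 115 against 131 to 144) and higher at 8.5 days (136 to 141 against 130.2 to 132). In Cre+ EDL muscles at 8.5 days, 3 of 7 fibroblast, 2 of 6 satellite cell and 1 of 7 endothelial genes were higher without overlap. In these lists 0 were lower without overlap, and 40.3% of all genes tested were higher by library size alone. At 2.5 days 4 of 7 endothelial genes were lower and 0 higher. Sums of 8 macrophage genes (48.9 to 118 FPKM over the EDL libraries of both days), 5 neutrophil genes, 5 adipocyte genes and 6 erythroid genes overlapped in EDL on both days, as did that of 5 Schwann cell genes at 2.5 days, and the sum of the Schwann cell genes was lower at 8.5 days (63.8 to 70.4 against 72.7 to 113). The sum of 6 proliferation genes was higher at 2.5 days but at most 1.04 FPKM, and that of 7 lymphocyte genes was at most 1.2 FPKM in EDL and lower in Cre+ at 8.5 days. At 2.5 days 4 of 6 proliferation genes were higher without overlap and 0 lower (52.1 and 15.4% of all genes). At 8.5 days 3 of 7 lymphocyte genes were lower and 2 higher, and 2 of 5 Schwann cell genes lower and 0 higher. In SOL, where no member passed, the myofiber, lymphocyte and erythroid sums were lower and the fibroblast and macrophage sums higher without overlap at 2.5 days, and the endothelial and proliferation sums higher at 8.5 days. The part of such cells in the changes of the ribosomal protein genes was not tested.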

How the data were processed

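Polyadenylated RNA of whole EDL and SOL muscles was sequenced from a stranded TruSeq library with single-end reads. The authors aligned the reads to mm10 (GRCm38) with STAR v2.5.3a and counted uniquely aligned reads on RefSeq exons with HOMER v4.9.1, and they deposited raw read counts per gene. FPKM were computed here from those counts, the exon length in the table and the total count. Cre+ and Cre- were compared with edgeR 4.0.16 in R 4.3.3 (TMM scaling, filterByExpr with a minimum count of 10, quasi-likelihood F test, two-sided, Benjamini-Hochberg adjustment over all genes tested). The 16 libraries of 2.5 and 8.5 days were fitted in 1 model with 8 groups (15372 genes), and those of 5.5 days in a model of all 24 libraries (15478 genes). A gene was called where the adjusted p was below 0.05 and the log2 fold change beyond 0.5 in either direction, and in a second rule at the adjusted p alone. The study describes the samples of a group as biologically independent, while the labels name no mouse, and the p-values measure the spread between these samples. The standard error is the log2 fold change divided by the root of F. With 2 against 2 libraries an exact permutation test cannot go below p = 0.333, so none was used.

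Members named with values were the paralogs, the stalk, fusion and Rpsa genes, the 5 highest genes, the 3 largest rises and falls in each comparison of 2.5 and 8.5 days and the 3 largest differences between muscles, with Rpl36al, Eef1a1, Eef1a2 and the 2 largest changes of each other list. Rpl5, Rpl11, Rpl13, Rpl17, Rpl32, Rps3a1, Rps6, Rpl6, Rpl9, Rpl28, Rpl29, Rps9, Rps10 and Nob1, and the other genes of the muscle difference, fall outside this rule and were chosen after their values were seen. A few genes that this rule names are not reported here. The members and lists were chosen with earlier results of these data known. Same-numbered EDL and SOL libraries deviated together (r between 0.172 and 0.444 over 15478 genes in 6 of 6 pairs of groups), whereas Cre+ and Cre- libraries of 1 number did not (r between -0.169 and 0.0575). Promoter sequences came from a RefSeq table on GRCm38.p6 and matched 65 of 85 members. The script was tested on simulated data for EDL at 2.5 days (15131 genes, 50 changed per fold). It recovered 5 of the 1.5-fold, 19 of the 2-fold, 45 of the 3-fold and 49 of the 4-fold changes, with 6 other genes called. Alternatives were other scalings, filters, thresholds and sets of libraries, DESeq2 1.42.0, the replicate number as a block, and fits that left out 1 library. For the comparisons between muscles, a fit that paired same-numbered EDL and SOL libraries was a further alternative. Scaling by library size for the genes higher in every Cre+ EDL library and the alternatives for the genes chosen after their values were seen were added after seeing the data.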

Additional observations from a re-analysis of the deposited data

Results flagged for a closer look

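For 10 ribosomal protein genes the change with OSKM differed between EDL and SOL by a test of the difference itself (edgeR, Benjamini-Hochberg adjusted p under 0.05 over all genes, change in EDL minus change in SOL on the log2 scale, mean of 2.5 and 8.5 days). The difference was 0.99 for Rpl3, 0.66 for Rpl10, 0.50 for Rps3a1, 0.49 for Rps10, 0.47 for Rpl8, 0.46 for Rpl18, 0.43 for Rpl17, 0.41 for Rpl6, 0.37 for Rpl29 and -0.72 for Rpl3l. The adjusted p ranged from 0.00731 (Rpl10, edgeR) to 0.0479 (Rpl29), and 10% of all genes passed the same test in either direction, so 10 of 83 members is close to the background. It was 10.8% of the members higher and 1.2% lower, against 6.56 and 3.48% of all genes. With the limit on the fold added, 3 of 83 passed (2.41% higher and 1.2% lower), below the 8.96% of all genes. Rpl3l was the only 1 of the 10 with a negative difference.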

How the results depend on the processing

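By adjusted p alone 29 members were called in EDL at 2.5 days, 15 in EDL at 8.5 days, 6 between muscles in Cre- and 10 for the muscle difference of the change (27.6, 15.7, 32 and 10% of all genes), and with a log2 limit of 1 there were 2, 0, 0 and 0 (11.5, 5.84, 10.2 and 3.6%). Scaled by library size alone, there were 54, 32 and, for the muscle difference, 30 (31.3, 16.3 and 12.1%), and the medians were 0.61 and 0.47 in EDL at 2.5 and 8.5 days, 0.024 in SOL at 2.5 days and 0.19 in EDL at 5.5 days. RLE size factors gave 6 (9.11%) and DESeq2 on the same libraries 8 (12.7%) for the muscle difference, and DESeq2 gave 1 (Rpl22l1, 1.02%) for the time difference. edgeR on the 4 libraries of a comparison alone gave 8 (16.8%) in EDL at 2.5 and 1 (7.03%) at 8.5 days. Leaving out 1 library gave 4 to 23 called members in EDL at 2.5 days, 1 to 13 at 8.5 days and 1 to 8 for the muscle difference, and medians of -0.12 to 0.20 in EDL and -0.14 to 0.10 in SOL at 5.5 days. With the replicate number as a block, 14 members were called in EDL at 2.5 days (24.1%) and 4 at 8.5 days (14.3%), where Rpl3l and Rpl39 lost the call (edgeR, adjusted p = 0.0603 and 0.0543). Genes higher in every Cre+ EDL library on both days numbered 78 by library size alone (32.3% of all genes), against 51 with TMM (18.8%). Of the single genes' values under alternatives, 4074 kept their side of the threshold, 116 gained and 75 lost the call, and 0 changed direction with a call. The 4074 include values of genes called in neither fit, as in SOL, where the main fit called no member. They do not measure how often a call was kept. The causes were not tested.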
